A study of Mus musculus with 23 samples.

Results

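Imprinted genes are transcribed mainly from the chromosome copy inherited from 1 parent, and 9 of them were followed here in 3 populations of mouse hippocampal neurons. The 9 are the long noncoding RNA genes Meg3, Rian and Mirg and the protein genes Peg3, Ndn, Magel2, Nnat, Snrpn and Zdbf2. They were taken by name, matched to the Ensembl identifiers of the deposited count table, and make up 9 of its 45706 gene identifiers. All 9 passed the filter on low counts in the table of 18823 tested genes. A further 46 imprinted genes from the table served as comparison.

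The libraries are of polyadenylated RNA from the hippocampus of mice. Their names give 3 populations, CamK and Grik, labelled as pyramidal excitatory cells and described by the study as CA1 and CA3 neurons, and SST, the somatostatin-positive inhibitory neurons. There are 4 wild-type (WT) libraries of each population, and 3 in CamK, 4 in Grik and 4 in SST labelled as a conditional knockout (cKO) of Slm2, the splicing regulator gene Khdrbs3. The study compared gene expression and splicing between the genotypes in each population. The Cre driver, the exons removed, the age of the mice and the way cells or their RNA were isolated are not given in the sources used here. Nothing says that the numbered libraries of a group come from separate animals, so the p-values measure only the spread between these libraries.

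Each library had 87612006 to 112993538 reads in genes. Total Khdrbs3 counts were lower in the libraries labelled cKO in CamK and SST but higher in Grik (278, 93.8 and 414 counts per 1000000 reads (CPM), against 373, 130 and 336 in WT), so cKO below means the label alone. Markers of the labelled cell types were present. The 4 CA1 genes summed to 1118 to 1531 CPM in CamK WT and at most 95.7 in Grik WT, and the 4 CA3 genes to 780 to 902 in Grik WT and at most 200 in CamK WT. In SST WT the CA1 genes summed to 392 to 406 and the CA3 genes to 248 to 343, the latter above their sum in CamK WT. The 4 dentate granule genes summed to 165 to 362.5 CPM in CamK WT, 179 to 191 in Grik WT and 35.4 to 47.5 in SST WT. The 4 interneuron genes summed to 5539 to 6333 in SST WT. Sst itself was uneven among the SST libraries, at 159 in WT 2 and 554 to 2125 in the other 7. Excitatory markers remained in SST WT at 764 to 892 CPM over 5 genes, against 5451 to 5983 in CamK WT.

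The 9 genes lie in 5 imprinted regions. Meg3, Rian and Mirg form a row on chromosome 12, read in the same direction from the maternal copy and thought to come from a common transcription unit, whose introns carry small nucleolar RNAs and microRNAs. Ndn, Magel2 and Snrpn lie on chromosome 7 in the region lost in Prader-Willi syndrome in people, and are read from the paternal copy, as are Peg3, Nnat and Zdbf2. The reads were counted per gene, so the values below are levels and do not tell the parental copies apart.

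In the GENCODE M21 annotation of GRCm38, Meg3 (ENSMUSG00000021268) spans chr12:109541001-109571726, Rian (ENSMUSG00000097451) chr12:109603940-109661716 and Mirg (ENSMUSG00000097391) chr12:109729764-109749460, all on the plus strand. The gaps between them are 32.2 and 68.0 kb. RefSeq places 1 microRNA hairpin inside Meg3, 3 inside Rian and 14 inside Mirg. Ndn (ENSMUSG00000033585, chr7:62346569-62350262) and Magel2 (ENSMUSG00000056972, chr7:62377010-62381640) are genes with 1 exon each on the plus strand, 26.7 kb apart, and Snrpn (ENSMUSG00000102252, chr7:59982495-60140219) lies 2210 kb before Ndn on the minus strand. Peg3 (ENSMUSG00000002265) spans chr7:6703892-6730431 on the minus strand and Zdbf2 (ENSMUSG00000027520) chr1:63273265-63314576 on the plus strand. Nnat (ENSMUSG00000067786, chr2:157560078-157562522, plus strand) sits inside Blcap, which is read from the other strand. Of the annotated exon bases of Snrpn, 34.1% also belong to another gene, among them Snurf on the same strand, as do 8.29% of Meg3 (mostly the opposite-strand gene Gm26906), 5.03% of Mirg and 3.42% of Rian (both on the same strand) and 4.76% of Nnat. Snurf had 0 reads in all 23 libraries. The strand setting of the counting is not given in the sources used here. Reads in those bases are therefore uncertain.

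Per kilobase of merged exons, Snrpn stood highest of the 9, at a mean of 249.0 ± 23.9 CPM per kb over all 23 libraries (SD). It encodes SmN, a core protein of the splicing machinery in neurons. Nnat, which encodes the small membrane protein neuronatin, followed at 187 ± 129, and Ndn, which encodes the growth-restraining protein necdin, at 86.1 ± 33.5. Peg3, a zinc-finger protein gene, stood at 40.4 ± 29.0. Meg3 and Rian, at 3.96 ± 4.04 and 3.49 ± 1.28, did not differ beyond their spread, and Zdbf2 (2.39 ± 0.380) and Magel2 (1.79 ± 1.5) followed in the mean over all libraries. Mirg was lowest at 0.0819 ± 0.0358, with 12 to 122 reads per library. Per kilobase of the longest transcript instead, Rian stood above Meg3 in the mean, at 7.87 against 4.92, with Peg3 at 62.0 and Mirg at 0.156. This order did not hold in every population. Meg3 stood below Rian in CamK WT (2.09 ± 0.792 against 3.40 ± 1.02) but above it in SST WT (6.05 ± 2.5 against 4.74 ± 0.816, SD, n = 4 each), with overlapping values in both. Meg3 reads per Rian read were 0.443 to 0.920 in CamK and 0.760 to 2.97 in SST. Nnat stood above Snrpn in Grik WT, at 324 ± 138 CPM per kb against 246 ± 25.5 (SD, n = 4 each), but this rests on Grik WT 6, without which they stood at 256 ± 21.5 and 236 ± 19.7 (SD, n = 3 each), within the spread. In Grik cKO Nnat stood at 328 ± 30.7 against 252 ± 3.80 for Snrpn, without overlap (SD, n = 4 each). Magel2 stood below Zdbf2 in CamK WT (0.416 ± 0.265 against 2.33 ± 0.473) and Grik WT (0.973 ± 0.0952 against 2.49 ± 0.269) but above it in SST WT (4.17 ± 0.548 against 2.60 ± 0.321, SD, n = 4 each). In SST WT Nnat, at 53.6 ± 1.53, stood below Ndn at 108 ± 33.3 and Peg3 at 85.7 ± 18.6 (SD, n = 4 each). Together the 9 genes took 0.210 to 0.273% of gene reads in SST, 0.163 to 0.220% in Grik and 0.127 to 0.158% in CamK.

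The largest differences of SST from both excitatory populations were in Magel2, Peg3 and Nnat. Magel2 and Peg3 were higher in SST, and Nnat was lower there. The 250 bases before the RefSeq start of each of these 3 genes (GRCm38.p6) are shown because their levels carry the main difference. They are written 5′ to 3′ on the gene's own strand, and capitals mark every CpG, the pair of bases whose methylation carries imprints: Magel2 from chr7:62376729-62376978 (plus strand), Peg3 from chr7:6730420-6730669 (minus strand) and Nnat from chr2:157559828-157560077 (plus strand).
Magel2: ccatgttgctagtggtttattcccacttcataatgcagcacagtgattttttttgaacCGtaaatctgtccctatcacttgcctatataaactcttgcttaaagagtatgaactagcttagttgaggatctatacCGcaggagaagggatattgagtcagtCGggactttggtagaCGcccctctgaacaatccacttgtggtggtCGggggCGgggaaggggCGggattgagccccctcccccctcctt
Peg3: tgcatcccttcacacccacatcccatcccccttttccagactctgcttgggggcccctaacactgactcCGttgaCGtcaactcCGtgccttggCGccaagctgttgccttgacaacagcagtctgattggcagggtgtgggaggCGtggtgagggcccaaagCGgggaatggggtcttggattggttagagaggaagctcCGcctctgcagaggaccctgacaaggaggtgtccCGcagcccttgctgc
Nnat: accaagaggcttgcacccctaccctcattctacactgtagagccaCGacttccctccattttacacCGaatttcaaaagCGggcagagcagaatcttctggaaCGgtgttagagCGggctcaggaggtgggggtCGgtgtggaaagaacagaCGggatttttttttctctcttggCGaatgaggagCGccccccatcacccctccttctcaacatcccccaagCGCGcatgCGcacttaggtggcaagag
The stretch holds 7 CpG in Magel2, 8 in Peg3 and 12 in Nnat, where the median over the 32851 RefSeq promoters was 6. At least as many were found in 46.3, 43.0 and 33.5% of all promoters. The letters TGCCGC, the core of the sequence bound by the imprint-keeping protein ZFP57 when methylated, were searched on both strands. They were in none of the 3 stretches and in 8.68% of all promoters. In the full RefSeq windows, which run on to 50 bases after the start, they occurred in the Nnat window and in 4 of 14 windows of the 9 genes, against 11.6% of all windows. A match or its absence says nothing about binding by that protein. The files hold no methylation data.

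Magel2 encodes a ubiquitin ligase partner that steers membrane proteins back from endosomes to the cell surface. In SST WT it stood at 20.5, 20.8, 15.5 and 20.6 CPM in WT 1, 2, 3 and 5. Grik WT 3, 4, 5 and 6 had 4.43, 4.18, 5.15 and 4.27, and CamK WT 2, 3, 4 and 5 had 0.66, 3.02, 1.10 and 2.93. The 3 WT groups did not overlap in any pairing, in the order CamK, Grik, SST. Differences are fitted log2 fold changes. Tests used edgeR's quasi-likelihood test over all 18823 genes, with p-values adjusted by the Benjamini-Hochberg method and a threshold of 0.05. Magel2 was lower in CamK than in SST by a log2 difference of -3.32 (SE 0.39, adjusted p 3.43e-07), a ratio of means of 10.03, and lower in Grik than in SST by -2.10 (SE 0.37, adjusted p 5.63e-05). CamK was also below Grik, by -1.22 (SE 0.37, adjusted p 0.0123), a call that was lost at a difference of -1.25 when a score of non-neuronal marker genes was a covariate (adjusted p 0.168).

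Within CamK, Magel2 fell into a low and a high set of libraries. WT 2, WT 4 and cKO 4 had 0.66, 1.10 and 0.77 CPM (60 reads at the least), and WT 3, WT 5, cKO 5 and cKO 6 had 2.43 to 3.07. The same 4 libraries were highest in CamK in Slc32a1, the vesicular transporter of GABA, at 7.80 to 12.3 CPM against 0.97 to 3.40, and in Gad2, a GABA-synthesis enzyme, at 26.9 to 42.0 against 5.33 to 11.05. Gad1, of the same list, separated the sets only narrowly, at 57.5 to 88.1 against 31.2 to 55.4. Sst did not separate them, at 5.06 in cKO 5 of the high set and 5.54 in cKO 4 of the low set. The interneuron list of 4 genes summed to 48.4 to 155 CPM in CamK WT and 83.0 to 146 in CamK cKO, and none of its 4 genes was under 1 CPM in every library. In Grik WT it summed to 79.9 to 112, with Slc32a1 at 1.88 to 5.38, although Magel2 was above every CamK library there. Magel2 reads per Slc32a1 read were 0.0319 to 0.0536 in SST, 0.226 to 0.682 in CamK and 0.793 to 2.94 in Grik. The part of interneuron RNA in the CamK values was not tested. Without these 4 libraries, chosen after the values were seen, the log2 difference from Grik was -2.36 and that from SST -4.46. Since they are also the 4 CamK libraries highest in Magel2, leaving them out enlarges both differences by construction, and these values are a description with no test. Bulk libraries cannot tell fewer cells of a type from less RNA per cell.

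**Figure D1:**
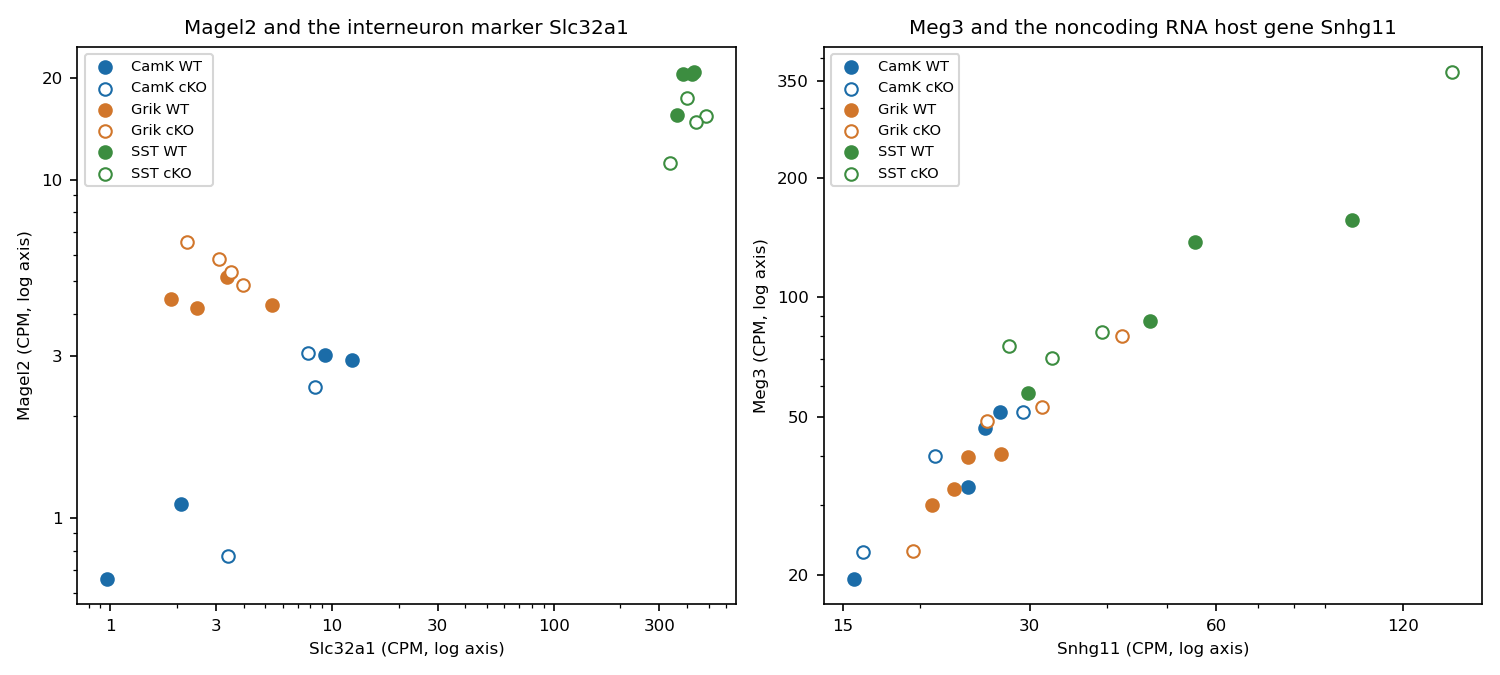
Level of Magel2 against the interneuron gene Slc32a1 (left) and of Meg3 against the host gene Snhg11 (right), in CPM on log axes; each point is a library, filled for WT and open for cKO, with colours for the populations. Magel2 lies at 0.66 to 1.10 in the 3 CamK libraries lowest in Slc32a1 and at 2.43 to 3.07 in the other 4, while every Grik library has 4.18 to 6.52.

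Peg3 encodes a zinc-finger DNA-binding protein. SST WT 1, 2, 3 and 5 had 1288, 1403, 1013 and 863 CPM. Grik WT 3, 4, 5 and 6 had 367, 370, 315 and 262, and CamK WT 2, 3, 4 and 5 had 271, 273, 217 and 200. Every SST WT library was above every library of the excitatory populations, where CamK and Grik overlapped. The log2 fold change was -2.25 for CamK against SST (SE 0.20, adjusted p 5.02e-09) and -1.80 for Grik against SST (SE 0.20, adjusted p 1.14e-07). CamK against Grik gave -0.45 (SE 0.19, adjusted p 0.0674). This difference passed the threshold with DESeq2 (adjusted p 0.0303), limma-voom (0.0366) and a fit of those populations alone (0.0246), and without Grik WT 6 (0.0417). It also passed with a block for the replicate number (edgeR adjusted p 0.00453).

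Nnat went the opposite way. SST WT 1, 2, 3 and 5 had 96.1, 101, 95.1 and 99.9 CPM. CamK WT 2, 3, 4 and 5 had 341, 333, 392 and 403, and Grik WT 3, 4, 5 and 6 had 426, 473, 504 and 969. The 3 groups did not overlap, and Grik WT 6 lay far above its group. Nnat was above SST by 1.91 in CamK (log2, SE 0.20, adjusted p 4.05e-08) and by 2.60 in Grik (SE 0.20, adjusted p 4.75e-10). CamK was below Grik by -0.69 (SE 0.19, adjusted p 0.00608), which became -0.35 without Grik WT 6 (adjusted p 0.0194). Without the 4 CamK libraries highest in Slc32a1, and so with fewer samples, the difference stayed at -0.69 and no longer passed (adjusted p 0.0551).

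Ndn was lower in CamK than in the other populations. CamK WT 2, 3, 4 and 5 had 248, 173, 168 and 301 CPM. Grik WT 3, 4, 5 and 6 had 229, 385, 402 and 435, and SST WT 1, 2, 3 and 5 had 418, 375, 546 and 248.6. The groups overlapped through Grik WT 3, SST WT 5 and CamK WT 5. The log2 fold change was -0.84 for CamK against SST (SE 0.25, adjusted p 0.00676) and -0.71 for CamK against Grik (SE 0.25, adjusted p 0.0275), and Grik against SST gave -0.13 (SE 0.25, adjusted p 0.680). The CamK against Grik call was lost without CamK WT 3 or 4 or Grik WT 4, 5 or 6, with adjusted p of 0.0809, 0.0869, 0.0586, 0.0645 and 0.0788 in that order and differences of -0.59 to -0.67. It also missed the threshold at differences of -0.70 with no filter on low counts (adjusted p 0.0507) and -0.80 without the 4 CamK libraries highest in Slc32a1 (adjusted p 0.0528). With a block for the replicate number it missed it at -0.66 (adjusted p 0.126).

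Snrpn and Zdbf2 were the most even. Snrpn ranged from 435 to 637 CPM and Zdbf2, which encodes a zinc-finger protein, from 21.6 to 36.5 over all 23 libraries. Snrpn was slightly lower in CamK than in SST, at 466, 460, 540 and 540 CPM in WT 2, 3, 4 and 5 against 548, 585, 534 and 637 in WT 1, 2, 3 and 5. This was a log2 difference of -0.20 (SE 0.08, adjusted p 0.0269) between overlapping groups, and the call was lost without CamK WT 2 or 3 (adjusted p 0.0887 and 0.0989) and without SST WT 2 or 5 (adjusted p 0.0509 and 0.112). Without the 4 CamK libraries highest in Slc32a1 the difference stayed at -0.19 and no longer passed (adjusted p 0.0913). Zdbf2 passed in no comparison. Its largest WT difference was -0.16 for CamK against SST, with a 95% interval of -0.49 to 0.17.

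Of the noncoding genes, Meg3 was higher in SST WT, at 156, 87.0, 137 and 57.5 CPM in WT 1, 2, 3 and 5. CamK WT 2, 3, 4 and 5 had 46.8, 51.4, 19.6 and 33.4, and Grik WT 3, 4, 5 and 6 had 40.3, 30.1, 32.9 and 39.7. SST WT 5 was the lowest of its group but still above every excitatory WT library. Meg3 was below SST by -1.54 in CamK (log2, SE 0.53, adjusted p 0.0185) and by -1.61 in Grik (SE 0.53, adjusted p 0.0148). The first of these calls was lost at a difference of -1.3 without CamK WT 4 (adjusted p 0.0584) or SST WT 1 (0.0547). Without the 4 CamK libraries highest in Slc32a1 it no longer passed either, at a larger difference of -1.72 (adjusted p 0.0725). With the score of non-neuronal marker genes as a covariate the difference turned to 0.55 (adjusted p 0.635).

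Rian, the host gene of many C/D box small nucleolar RNAs, moved less. SST WT 1, 2, 3 and 5 had 86.6, 75.8, 107 and 75.7 CPM, CamK WT 2, 3, 4 and 5 had 67.3, 85.7, 44.3 and 50.6, and Grik WT 3, 4, 5 and 6 had 58.6, 62.8, 46.5 and 30.5. Grik did not overlap SST, with a log2 difference of -0.80 (SE 0.22, adjusted p 0.00403), whereas CamK did, with -0.48 (SE 0.22, adjusted p 0.0666). The latter passed with DESeq2 (adjusted p 0.0269), with a minimum of 1 CPM in 3 libraries (0.0482) and without CamK WT 3 (0.0129). It also passed with a block for the replicate number (edgeR adjusted p 0.0288). With the score of non-neuronal marker genes as a covariate it turned to 0.09 (edgeR adjusted p 0.885).

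Mirg, the host of a microRNA cluster, had the fewest reads of the 9 genes, 12 to 122 per library. It stood at 0.36, 0.41, 0.14 and 0.55 CPM in CamK WT 2, 3, 4 and 5 and at 0.81, 1.10, 0.70 and 0.48 in SST WT 1, 2, 3 and 5. The groups overlapped in SST WT 5 and CamK WT 5. The log2 fold change was -1.08 (SE 0.40, adjusted p 0.0235). This call was lost without CamK WT 4 (-0.80, adjusted p 0.0881) or SST WT 2 (-0.87, adjusted p 0.0854). With the score of non-neuronal marker genes as a covariate the difference turned to 0.34 (adjusted p 0.746). Grik WT had 0.50, 0.51, 0.42 and 0.63 in WT 3, 4, 5 and 6, which differed from SST by -0.58 (SE 0.40, adjusted p 0.222).

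In all, 7 of the 9 genes were called between CamK and SST, 6 lower and 1 higher in CamK, where 60.1% of all tested genes were called, 30.5% lower and 29.5% higher. Between Grik and SST 5 of 9 were called, 4 lower and 1 higher in Grik, against 57.3% of all genes, 29.2% lower and 28.1% higher. Between CamK and Grik 3 of 9 were called, all lower in CamK, against 42.0% of all genes, 21.1% lower and 20.9% higher. With 9 genes, these shares are too coarse to set the members apart from all genes. Groups did not overlap for 4 of the 9 between CamK and SST (53.9% of all genes), 5 between Grik and SST (52.3%) and 2 between CamK and Grik (38.3%). The median log2 difference of the 9 was -0.84, -0.58 and -0.45 in these comparisons, against -0.02, -0.03 and 0.01 over all genes.

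**Figure D2:**
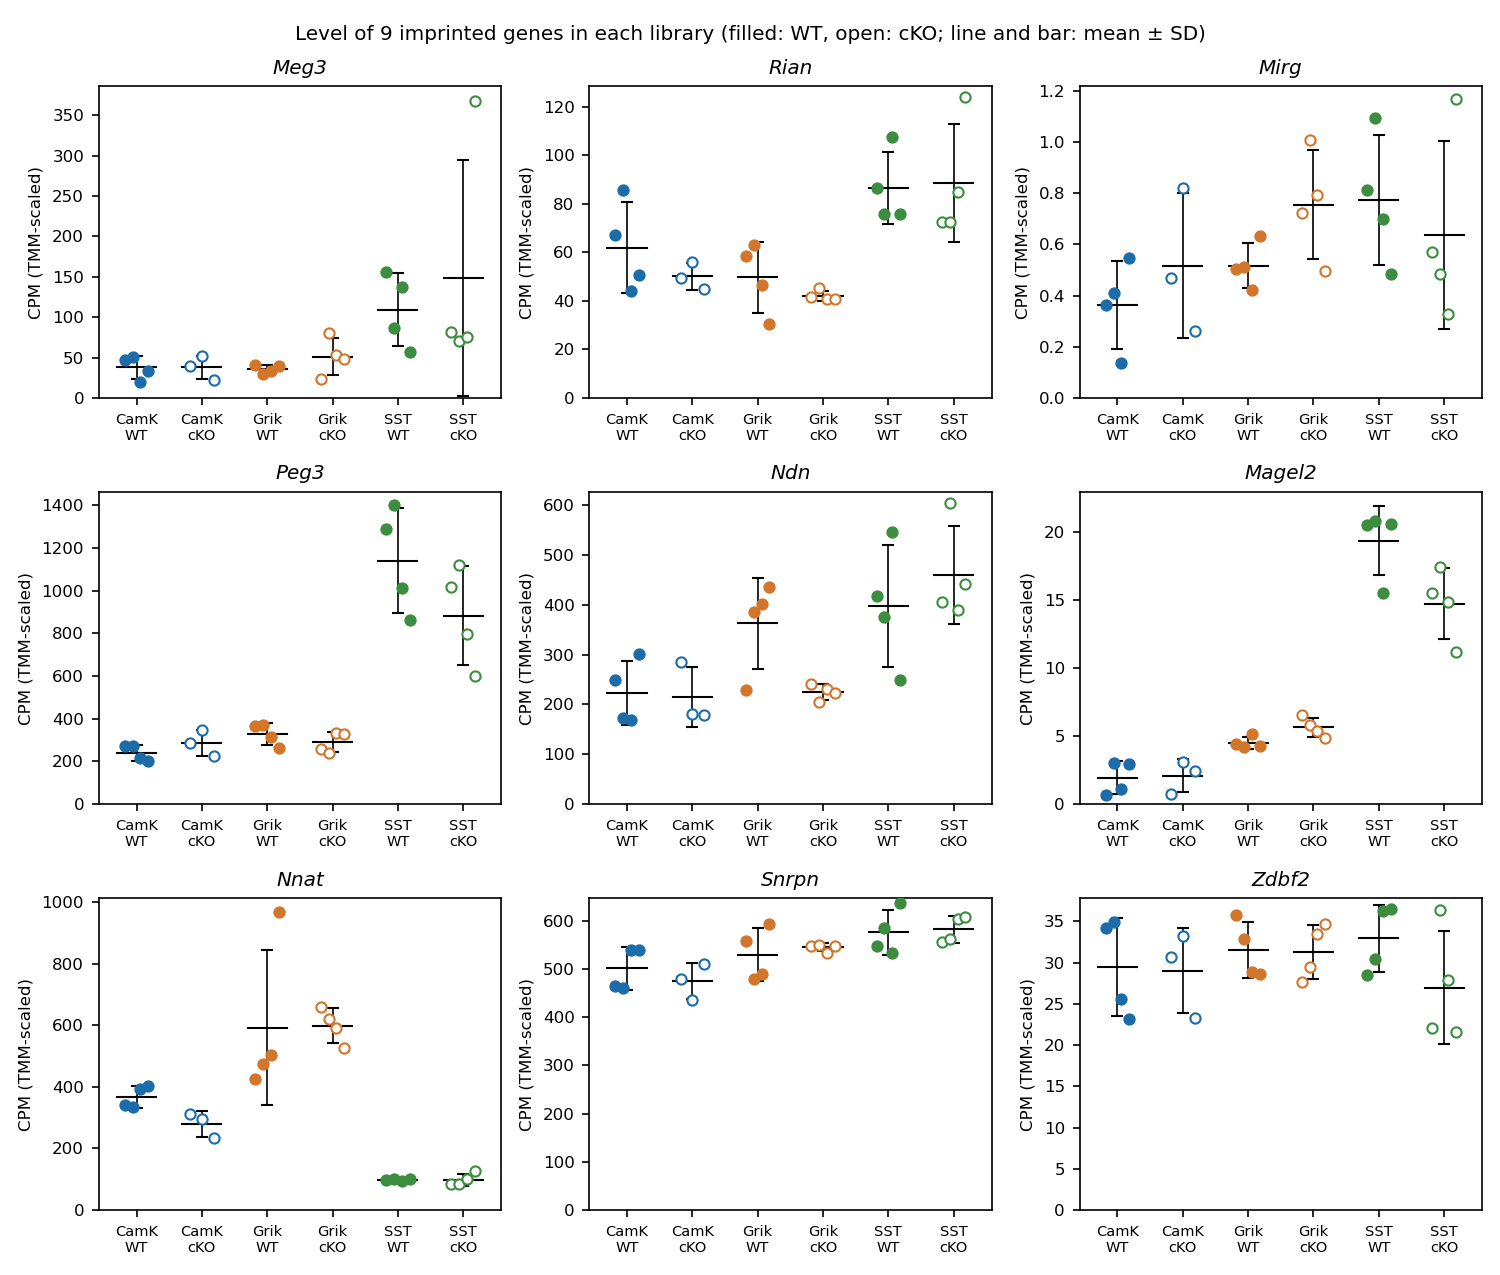
Level of each gene in CPM (linear axis from 0) in every library of the 6 groups, filled for WT and open for cKO, with a line at the mean and a bar for the SD. Peg3 and Magel2 are highest in both SST groups and Nnat is lowest there, while Snrpn stays between 435 and 637.

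Markers of other cells also differed between the populations. The score averaged from non-neuronal marker genes was 0.16 to 1.59 in SST, -0.37 to 0.66 in Grik and -2.19 to -0.47 in CamK. The 5 oligodendrocyte-lineage genes summed to 285 to 657 CPM in SST WT, 143 to 217 in CamK WT and 660 to 878 in Grik WT. The 5 astrocyte genes summed to 53.6 to 105, 9.01 to 21.0 and 50.9 to 60.9 in the same order, and the 5 endothelial genes to 9.08 to 34.6, 1.13 to 2.22 and 3.60 to 4.98. With the score as a covariate, Meg3, Rian and Mirg turned to 0.55, 0.09 and 0.34 in CamK against SST, and none was called, while Ndn and Snrpn no longer passed there at log2 differences that were no smaller (-1.14 and -0.23, edgeR adjusted p 0.0778 and 0.265). Between CamK and Grik the covariate ended the calls of Ndn, Magel2 and Nnat (log2 -0.95, -1.25 and -0.36, edgeR adjusted p 0.120, 0.168 and 0.475). In Grik against SST, Meg3 and Rian kept theirs at -1.22 and -0.66. The score and the population rise together, so their parts in these differences cannot be told apart. Peg3, Magel2 and Nnat kept their calls against SST, at -2.40, -3.36 and 2.31 in CamK and -1.83, -2.11 and 2.67 in Grik.

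The ratio between neighbouring genes differed in some comparisons and not in others. Reads of a gene were divided by those of a neighbour within each library, and the log2 ratio was compared between WT groups with a two-sided exact permutation test, for 15 tests in all chosen after values were seen, of which 9 passed and 6 did not. With 4 libraries against 4 the smallest p is 0.0286, adjusted to 0.0477. All 9 that passed stood at this smallest p, so passing depended on which ratios were put in the set. The passes are therefore only a description of groups without overlap. Magel2 per Ndn read was below SST by -2.77 in CamK (log2, exact p 0.0286, adjusted 0.0477) and -1.98 in Grik (exact p 0.0286, adjusted 0.0477), with no overlap. The CamK against Grik difference of -0.79 did not pass (exact p 0.229). It was -0.3 without CamK WT 2 and -1.2 without CamK WT 3. In the same cluster Mkrn3, a ubiquitin ligase gene, was at 7.91 ± 1.11 CPM in SST WT, 0.408 ± 0.148 in CamK WT and 0.395 ± 0.0757 in Grik WT (SD, n = 4 each). The noncoding RNA Snhg14, which starts at Snrpn, was at 13.9 ± 3.47, 8.64 ± 2.35 and 9.19 ± 2.63 in the same order (SD, n = 4 each).

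**Figure D3:**
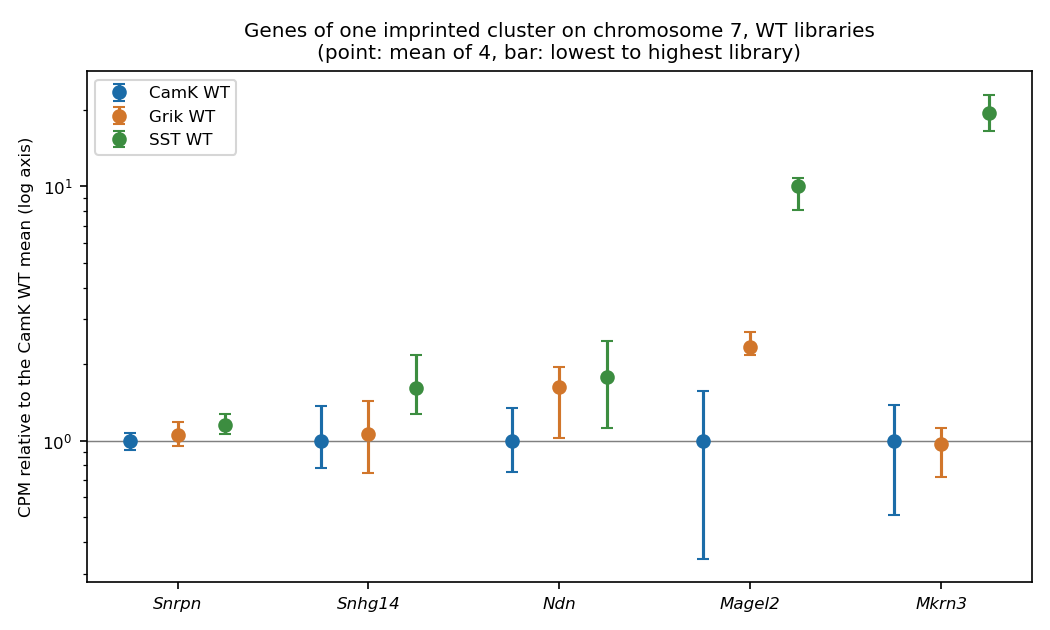
WT levels of 5 genes of the Prader-Willi region on chromosome 7, each divided by its own CamK WT mean (log axis); points are means of 4 libraries and bars run from the lowest to the highest library. Mkrn3 and Magel2 stand well above 1 in SST WT, where their means were 7.91 and 19.3 CPM, and Snrpn stays near 1 in all populations.

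Nnat and Blcap, which share a locus, moved in opposite directions. Blcap, a gene read mainly from the maternal copy in brain, averaged 155 ± 9.14 CPM in SST WT, 109 ± 6.02 in CamK WT and 90.5 ± 7.0 in Grik WT (SD, n = 4 each). Nnat reads per Blcap read were 0.542 to 0.859 in SST, 2.35 to 3.77 in CamK and 4.51 to 12.1 in Grik. The log2 ratio was above SST by 2.42 in CamK and 3.30 in Grik and lower in CamK than in Grik by -0.88, each with no overlap and an exact permutation p of 0.0286 (adjusted 0.0477). Without Grik WT 6 the difference between CamK and Grik was -0.56.

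Peg3 and its neighbour Usp29, a deubiquitinase gene, were both higher in SST than in the excitatory populations. Usp29 averaged 161 ± 14.3 CPM in SST WT, 49.4 ± 3.84 in CamK WT and 47.6 ± 5.58 in Grik WT (SD, n = 4 each), a log2 difference of -1.70 for CamK and -1.76 for Grik against SST (SE 0.10 each, edgeR adjusted p 4.78e-13 and 2.36e-13). Peg3 reads per Usp29 read were 4.82 to 9.35 in SST, 4.05 to 6.38 in CamK and 6.04 to 7.36 in Grik. That log2 ratio differed between CamK and Grik WT by -0.51 (exact permutation p 0.0286, adjusted 0.0477), while CamK against SST overlapped (exact p 0.0857) and so did Grik against SST (exact p 0.886). The Meg3 to Rian ratio was lower in CamK than in SST by -1.01 (exact permutation p 0.0286, adjusted 0.0477), and overlapped in the other comparisons.

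Meg3 varied 18.8-fold over the libraries, more than Rian (4.05-fold) and Peg3 (7.0-fold) and Nnat (11.7-fold) and less than Magel2 (31.4-fold). The range of Meg3 rests on SST cKO 7, without which it was 7.96-fold. The range of Nnat likewise has its top in Grik WT 6, at 969 CPM against at most 661 in the other Grik libraries. SST cKO 7 had 368 CPM, while SST cKO 3, 4 and 5 had 81.6, 70.5 and 75.3. The same library was highest of all 23 in Snhg11, a host gene of small nucleolar RNAs, at 144 CPM, in the nuclear noncoding RNA Miat at 70.7, and in Malat1 (136) and Neat1 (7.12), noncoding RNAs of nuclear bodies. Meg3 reads per Miat read stayed within 3.78 to 7.39 over all libraries, and per Snhg11 read within 1.19 to 2.71. Rian was at 124 in SST cKO 7, its highest value, and Mirg at 1.17, also its highest. Of the other noncoding RNAs of the comparison list, Tug1 stood at 68.0 there, its lowest of the 23 libraries, and Pantr1 at 59.0, the highest of the SST libraries, which ranged from 49.6 to 57.6 otherwise. How these levels came about was not tested.

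Of 7 noncoding RNAs listed for comparison, 3 were called between CamK and SST, 2 lower and 1 higher in CamK, which is 42.9% against 60.1% of all tested genes. Between Grik and SST 3 were also called, 2 lower and 1 higher in Grik (42.9% against 57.3%). Snhg11 and Malat1 were lower in CamK than in SST WT by -1.34 (log2, SE 0.46, edgeR adjusted p 0.0186) and -1.39 (SE 0.48, adjusted p 0.0193), close in size to Meg3. Snhg11 was also lower in Grik, by -1.30 (SE 0.46, adjusted p 0.0228). Malat1 gave -0.89 there (SE 0.48, adjusted p 0.123). Pantr1 was higher in CamK than in SST by 0.47 (SE 0.14, edgeR adjusted p 0.00435) and lower in Grik by -3.47 (SE 0.15, adjusted p 1.81e-15), and Tug1 was higher in Grik than in SST by 0.37 (SE 0.10, adjusted p 0.0031) and gave 0.07 in CamK (SE 0.10, adjusted p 0.550). The seventh, Xist, which is transcribed in female cells, gave -2.83 in CamK and 0.93 in Grik against SST with wide errors (SE 2.26 and 2.01, edgeR adjusted p 0.294 and 0.719). Miat gave -1.01 and -1.38 (SE 0.58 and 0.59, adjusted p 0.143 and 0.0534) and Neat1 -0.91 and -0.93 (SE 0.57 each, adjusted p 0.178 and 0.176).

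Within a population, 18 pairs of genes from the same cluster were correlated over 7 or 8 libraries, and none passed after adjustment. The highest was Meg3 with Rian in SST, with r = 0.89 (permutation p 0.0149, adjusted 0.134) and rho = 0.76 (permutation p 0.0368, adjusted 0.221), and r = 0.81 without the 2 libraries farthest from the median. In CamK the same pair gave r = 0.78 (permutation p 0.00714, adjusted 0.129), rho = 0.86 (permutation p 0.0238, adjusted 0.214) and r = 0.68 without 2 libraries. In Grik it gave r = -0.16 (permutation p 0.717, adjusted 0.860) and rho = -0.29 (permutation p 0.501, adjusted 0.752), and r = -0.50 without 2 libraries. For Magel2 in CamK, where the libraries fell into separate sets, both pairs were among the 18 and neither passed, and no pooled r is given.

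Among 12965 genes with a mean of at least 1 CPM, those whose log2 CPM ran most like a member's over the 23 libraries were found by Pearson's r. The libraries share their population, so these are descriptions without a test. Meg3 was closest to Snhg11, Miat and Mir124a-1hg (r = 0.96 each), and Rian to Trank1 (0.92), Tet2 (0.91) and Irf9 (0.90). Peg3 was closest to Gprasp2 (0.99), Rragb and Srgap2 (0.98 each), Magel2 to Drd2 and Clic4 (0.96 each) and Cpt2 (0.95), and Nnat to Letmd1, Mmd2 and Klhl2 (0.98 each). The closest to Ndn was Xrcc2 (0.83), to Snrpn Srsf12 (0.86), to Zdbf2 Mkln1 (0.88) and to Mirg Neb (0.77). For Ndn, Fam214b (0.81) and Spats1 (0.80) came next, for Snrpn Pfdn4 and Hint1 (0.86 each), for Zdbf2 Aff4 (0.84) and Tardbp (0.83), and for Mirg Kdr (0.76) and Col11a2 (0.75).

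None of the 9 genes passed the test between genotypes. In each of CamK, Grik and SST 0 of 9 passed edgeR's test, where 0.0106% of all genes were called in each population, and DESeq2 and limma-voom also called 0. At an unadjusted p under 0.05 there were 0 members in CamK, 1 in Grik and 0 in SST, against 1327, 919 and 1102 of the 18823 tested genes. The differences of the genotype effect between populations called 0 of 9 members as well, where 0.00531% of all genes were called for CamK against Grik, 0.0% for CamK against SST and 0.0106% for Grik against SST. Over 1074 tests of members under all alternatives, 0 passed, and the lowest adjusted p was 0.101, for Ndn in Grik with limma-voom.

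Ndn in Grik was the member with the lowest unadjusted p. Grik cKO 1, 2, 3 and 4 had 241, 204, 231 and 222 CPM, against 229, 385, 402 and 435 in WT 3, 4, 5 and 6. The cKO libraries were even and overlapped the WT group through WT 3 alone. The log2 fold change was -0.69 (SE 0.25, 95% interval -1.21 to -0.17, edgeR adjusted p 0.916). In SST it was 0.21 (SE 0.25, adjusted p 0.912), and the difference of the effects, -0.90 (SE 0.35), had an edgeR adjusted p of 1.0.

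Nnat in CamK stood at 313, 294 and 233 CPM in cKO 4, 5 and 6, all below the 333 to 403 of WT. This was a log2 difference of -0.39 (SE 0.21, 95% interval -0.83 to 0.05, edgeR adjusted p 0.734), and 6.75% of all genes had groups that did not overlap in this comparison. In Grik and SST the groups overlapped for all 9 members, where 4.59% and 2.7% of all genes did not overlap. In Grik cKO it ranged from 527 to 661 and in SST cKO from 83.0 to 125. Peg3 in SST stood at 1017, 1120, 796 and 602 CPM in cKO 3, 4, 5 and 7, with a log2 difference of -0.37 (SE 0.19, 95% interval -0.78 to 0.04, edgeR adjusted p 0.839). Its groups overlapped.

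Magel2 in SST cKO 3, 4, 5 and 7 stood at 15.5, 17.4, 14.8 and 11.2 CPM, overlapping WT through WT 3, a log2 difference of -0.39 (SE 0.35, edgeR adjusted p 0.876). In Grik cKO it had 4.87 to 6.52, a log2 difference of 0.32 (SE 0.36, adjusted p 0.992). Meg3 in SST gave 0.44 (SE 0.52, edgeR adjusted p 0.913), which turned to -0.53 without cKO 7. In Grik Meg3 had 23.1, 80.0, 53.0 and 48.8 CPM in cKO 1, 2, 3 and 4, a log2 difference of 0.52 (SE 0.52, adjusted p 0.992). With 1 library left out this difference ranged from 0.22 to 0.76. Snrpn, the most precisely measured, gave -0.08, 0.04 and 0.02 in CamK, Grik and SST (SE 0.08 each), with 95% intervals from -0.25 to 0.20 at the widest.

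**Figure D4:**
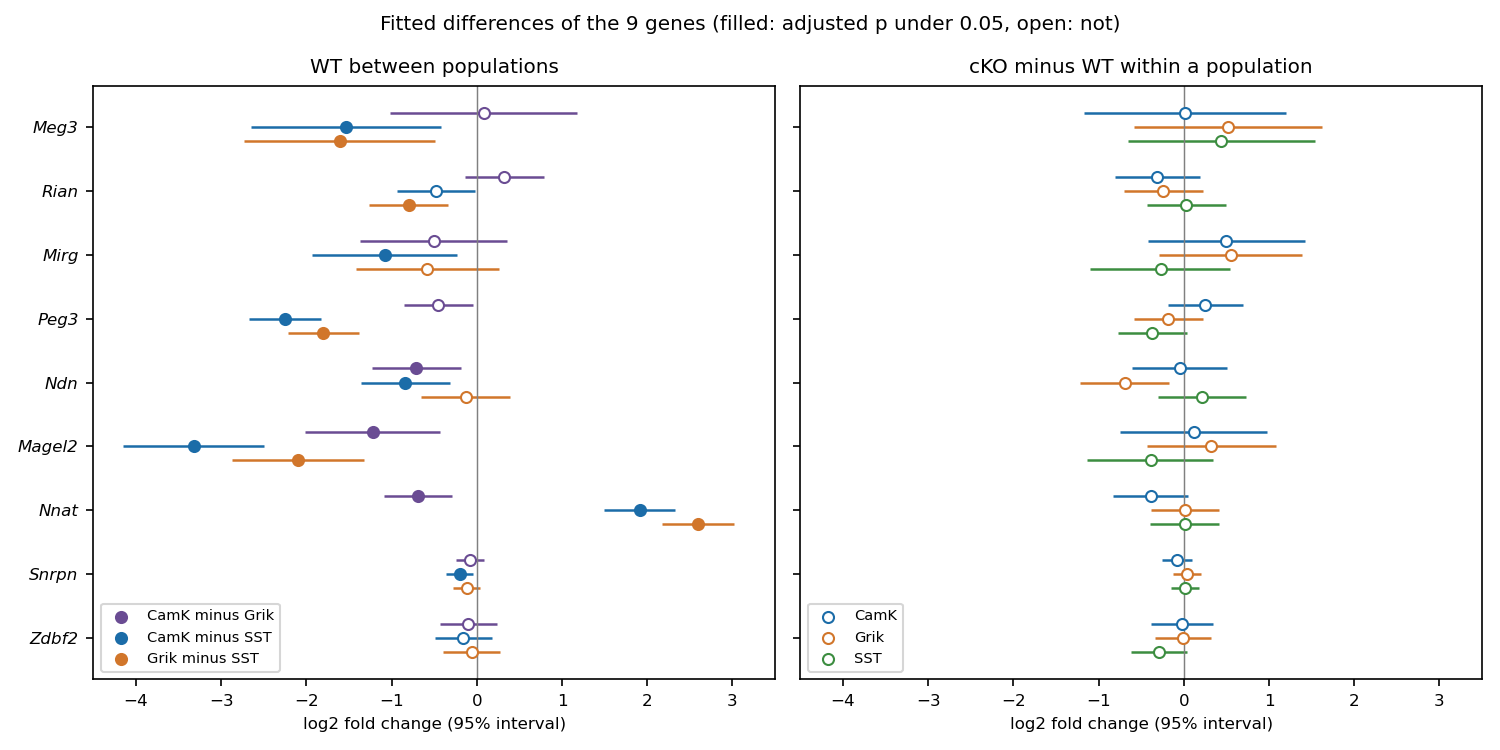
Fitted log2 fold changes of the 9 genes with 95% intervals, between WT populations (left) and for cKO against WT in each population (right); filled points passed an adjusted p of 0.05 and open points did not. Magel2 and Peg3 lie left of 0 against SST and Nnat right of it, whereas every interval but that of Ndn in Grik (-1.21 to -0.17) spans 0 on the right.

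The other imprinted genes of the table were counted beside these 9. Of these 46, 43 could be tested, and 33 were called between CamK and SST, 26 of them lower in CamK and 7 higher. Between Grik and SST 33 were called, 23 lower and 10 higher in Grik, and between CamK and Grik 23, of which 14 were higher and 9 lower in CamK. These are 76.7, 76.7 and 53.5% of the 43, where 60.1, 57.3 and 42.0% of all tested genes were called. With the non-neuronal score as covariate the count between CamK and Grik was 14. Their median log2 fold change was -0.51, -0.54 and 0.06 in that order, against -0.02, -0.03 and 0.01 over all genes. In the genotype comparisons 0 were called, also by DESeq2 and limma-voom, with 5, 2 and 1 at an unadjusted p under 0.05 in CamK, Grik and SST.

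Several other imprinted genes were higher in SST. Nap1l5, a nucleosome assembly protein gene, averaged 1776 ± 87.5 CPM in SST WT, 363 ± 31.9 in CamK WT and 107 ± 9.42 in Grik WT (SD, n = 4 each), and its log2 fold change against SST was -2.29 in CamK and -4.05 in Grik (SE 0.08 and 0.09, edgeR adjusted p 4.38e-17 and 2.12e-20). Mkrn3 gave -4.27 and -4.32 (SE 0.22 each, adjusted p 1.92e-14 and 1.38e-14). The growth factor gene Igf2, which blood vessels and meninges also express, gave -2.19 in CamK (SE 0.50, edgeR adjusted p 0.000913), and Sfmbt2, a Polycomb-group gene, -1.80 (SE 0.19, adjusted p 1.56e-08). Grb10, an adaptor of insulin signalling, averaged 106 ± 13.3 CPM in SST WT and 26.4 ± 2.23 in Grik WT (SD, n = 4 each), a log2 difference of -2.01 (SE 0.11, edgeR adjusted p 3.13e-14).

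Others were higher in excitatory neurons. Rasgrf1, an exchange factor for Ras, averaged 244 ± 48.1 CPM in SST WT, 690 ± 27.8 in CamK WT and 562 ± 11.6 in Grik WT (SD, n = 4 each), with log2 fold differences of 1.5 and 1.2 against SST (SE 0.10 each, edgeR adjusted p 3.17e-12 and 1.59e-10). Dio3, the thyroid hormone inactivating enzyme at the far end of the Meg3 region, gave 2.35 in CamK and 1.76 in Grik (SE 0.24 each, edgeR adjusted p 7.20e-09 and 7.32e-07). Ppp1r9a, an actin-binding scaffold gene, gave 0.77 in CamK (SE 0.08, edgeR adjusted p 1.64e-08), and Commd1, a copper-handling gene, 0.72 in Grik (SE 0.09, adjusted p 2.73e-07).

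Imprinted genes also differed between CamK and Grik, some of them among those that differed from SST. Dlk1, the paternally expressed gene at the near end of the Meg3 region, averaged 4.36 ± 2.98 CPM in SST WT, 11.1 ± 3.41 in CamK WT and 1.77 ± 0.747 in Grik WT (SD, n = 4 each), a log2 difference of 2.65 for CamK against Grik (SE 0.55, edgeR adjusted p 0.000748) and 1.35 against SST (SE 0.52, adjusted p 0.0330). The zinc-finger gene Plagl1 averaged 10.2 ± 2.14 in CamK WT and 58.1 ± 5.88 in WT Grik libraries, a log2 difference of -2.52 (SE 0.15, edgeR adjusted p 2.19e-12), and was higher in Grik than in SST by 1.51 (SE 0.14, adjusted p 1.91e-09). Nap1l5, Atp10a and the potassium channel gene Kcnk9 were higher in CamK than in Grik by 1.76, 1.69 and 1.06 (log2, edgeR adjusted p 2.73e-14, 0.000281 and 2.06e-06). Mest, Sfmbt2 and Gnas, the gene of the stimulatory G protein alpha subunit, were lower by -1.0, -1.26 and -0.57 (edgeR adjusted p 1.54e-08, 9.47e-06 and 1.37e-07).

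Some regulators of imprints differed between populations. Zfp57, whose protein holds methylation at imprinted control regions in the embryo, averaged 6.59 ± 1.13 CPM in SST WT, 0.841 ± 0.247 in CamK WT and 0.841 ± 0.154 in Grik WT (SD, n = 4 each). Its log2 fold change was -2.97 against SST in both (SE 0.20 each, edgeR adjusted p 2.57e-12 and 2.38e-12). Zfp445, which shares this role, gave -1.03 in CamK against SST (SE 0.30, edgeR adjusted p 0.00571), with SST WT at 120 ± 63.0 CPM (SD, n = 4). Trim28, their corepressor, was higher in Grik than in SST by 0.43 (SE 0.07, edgeR adjusted p 3.80e-06). The insulator protein gene Ctcf was higher in CamK than in SST by 0.61 and than in Grik by 0.23 (log2, SE 0.07 each, edgeR adjusted p 7.49e-08 and 0.0111). The DNA demethylation gene Tet3 was above SST by 0.53 in CamK and 0.59 in Grik (SE 0.12 each, adjusted p 0.000685 and 0.000266), and Tet2 was lower in Grik than in SST by -0.67 (SE 0.19, adjusted p 0.00458). Dnmt3a, a DNA methyltransferase gene, was higher in CamK than in Grik by 0.24 (SE 0.10, edgeR adjusted p 0.0491). Of 16 such genes 15 were tested, with 4 called between CamK and Grik, 10 between CamK and SST and 11 between Grik and SST, and 0 in any genotype comparison. These are 26.7, 66.7 and 73.3% of the 15, against 42.0, 60.1 and 57.3% of all tested genes.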

How the data were processed

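Polyadenylated RNA was sequenced in 23 libraries. Values in the deposited table are raw counts of reads, whole numbers listed by Ensembl gene, made by the authors with STAR and Trimmomatic on GRCm38, per the submitters' processing notes; versions, annotation release and strand setting are not given in the sources used here. Of 45706 gene identifiers, 45143 matched GENCODE M21. Reads in 4 summary rows that name no gene (12.4 to 18.4% of reads) were left out. Depth was high enough that counting error is small except for Mirg and Magel2 in CamK.

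Genes were kept by filterByExpr (18823), scaled by TMM, and fitted together with 6 group means and 17 residual degrees of freedom in edgeR 4.0.16 (R 4.3.3, glmQLFit with robust estimation, glmQLFTest). P-values were adjusted over all genes by the Benjamini-Hochberg method, with a threshold of 0.05. CPM values carry TMM scaling. Read ratios and correlations were tested by permutation in scipy 1.17.1. Standard errors are the absolute log2 fold change divided by the square root of F.

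Members and lists were chosen with earlier results of these data known. All 9 members are named, and of the other imprinted genes and regulators those with the largest called log2 fold changes at a mean of at least 1 CPM, up to 4 and 2 in each direction of each WT comparison. Blcap, Snhg14, the other noncoding RNAs and the neighbour ratios were chosen after their values were seen.

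Tried instead were no filter on low counts, scaling by relative log expression, a minimum of 1 CPM in 3 libraries, DESeq2 1.42.0, limma-voom 3.58.1 with sample weights, a fit of the compared populations alone, a non-neuronal score as covariate, a block for the replicate number, leaving out each library, and leaving out 4 CamK libraries, the last chosen after the data were seen. The edgeR step was tested on simulated counts with 200 changed genes. It recovered 90, 91 and 94% of 2-fold changes in CamK (18470 genes), Grik (18489) and SST (18503), and 67, 70 and 77% of 1.5-fold changes. In the real data 2 genes were called in each genotype comparison, so the adjustment was stricter there than in the simulation. The rates therefore do not tell how often a change of that size in a member would be called.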

Additional observations from a re-analysis of the deposited data

Results flagged for a closer look

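In 4 of 45 pairs of a member and a group of 4 libraries, 1 library lay far from the other 3 by Dixon's test, where chance flags about 1 in 20. Meg3 stood at 368 CPM in SST cKO 7, against 70.5 to 81.6 in the other 3 libraries. Nnat stood at 969 CPM in Grik WT 6, against 426 to 504. Magel2 stood at 15.5 CPM in SST WT 3, against 20.5 to 20.8, and Snrpn at 533 CPM in Grik cKO 3, against 549 to 551. The causes were not tested.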

How the results depend on the processing

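Of 470 alternative fits of a member's log2 fold change, 421 kept direction and side of the threshold, as did 399 of 454 fits with a library left out. Both totals include the genotype comparisons. No member passed there in any fit, so keeping the side of the threshold tells little about the called WT differences. With the non-neuronal score as covariate, 0 members were called between CamK and Grik and 3 between CamK and SST, and 14 other imprinted genes between CamK and Grik. Meg3 in CamK against Grik moved with it from 0.08 to 1.77 (SE 0.69, edgeR adjusted p 0.0812). Without the 4 CamK libraries highest in Slc32a1, 1 member passed between CamK and Grik, Magel2, whose difference this choice enlarges by construction, so that call carries no evidence. Leaving out 1 library gave 2 to 3 members called between CamK and Grik, 5 to 7 between CamK and SST and 5 between Grik and SST. Per kilobase of the longest transcript, Rian stood at 7.87, Meg3 at 4.92, Peg3 at 62.0 and Mirg at 0.156. As deviations from genotype means, Rian with Mirg in CamK gave r = 0.56, Ndn with Magel2 in Grik 0.1, and Magel2 with Snrpn -0.18 in Grik and 0.01 in SST.

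Direction turned in the following fits, and the causes were not tested. With the covariate, CamK against SST gave 0.55 for Meg3, 0.092 for Rian and 0.34 for Mirg, CamK against Grik gave 0.60 for Mirg, and cKO against WT gave -0.55 for Meg3 and 0.021 for Ndn in CamK and -0.12, -0.059 and -0.044 for Meg3, Rian and Nnat in SST. With limma-voom, cKO against WT gave -0.16, 0.13 and -0.29 for Meg3, Ndn and Magel2 in CamK, 0.014 for Zdbf2 in Grik, and -0.14, -0.056 and -0.024 for Meg3, Rian and Nnat in SST. Without the 4 CamK libraries, Meg3 gave -0.11 in CamK against Grik, and cKO against WT in CamK gave 0.45, -0.19 and 0.037 for Ndn, Magel2 and Zdbf2. Nnat for cKO against WT in SST gave -0.0032 with a minimum of 1 CPM and -0.0093 with SST alone, where Snrpn gave -0.0024.

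Replicate numbers recur between groups. Within a population, the 6 same-numbered pairs of cKO and WT deviated together with r of -0.13 to 0.26, against -0.36 to 0.34 in the 38 other pairs. The numbers were therefore not taken to pair cKO with WT. Same-numbered libraries of different populations were not compared in this way, so a link between them remains unchecked. With the replicate block, 3, 8 and 6 members and 21, 33 and 32 other imprinted genes were called between CamK and Grik, CamK and SST, and Grik and SST, and 0 in each genotype comparison. The block ended the call of Ndn between CamK and Grik at a log2 difference of -0.66 (SE 0.33, adjusted p 0.126). It added Peg3 there (0.00453), Rian between CamK and SST (0.0288) and Snrpn between Grik and SST (0.0459). With the block, Meg3 gave -0.20 in CamK against Grik, and cKO against WT gave 0.012 and 0.077 for Rian and Zdbf2 in CamK and -0.32, -0.095, -0.12 and -0.035 for Meg3, Rian, Nnat and Snrpn in SST.

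Ranges with 1 library left out spanned 0 for CamK against Grik in Meg3 (-0.10 to 0.29) and Zdbf2 (-0.19 to 0.0036) and for Grik against SST in Ndn (-0.30 to 0.063). For cKO against WT they did so in CamK for Meg3 (-0.26 to 0.28), Ndn (-0.30 to 0.13), Magel2 (-0.27 to 0.51) and Zdbf2 (-0.13 to 0.12), in Grik for Nnat (-0.11 to 0.35), Snrpn (-0.0051 to 0.093) and Zdbf2 (-0.073 to 0.055), and in SST for Meg3 (-0.53 to 0.68), Rian (-0.17 to 0.16), Nnat (-0.13 to 0.086) and Snrpn (-0.018 to 0.069).

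Mirg had the fewest reads of the 9 genes, 12 to 122 a library, and the part of counting error in its spread was not tested. Simulated 1.5-fold genotype changes were recovered in 67 to 77% of genes, with 200 genes changed at once. That share does not carry over to the members, since 2 genes were called in each real genotype comparison.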
